A study of Mus musculus with 6 samples.

Results

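The genes described here are 42 trans-synaptic adhesion and organizer genes of mouse, among them the 5 genes of the Lrfn family, in the prefrontal cortex (PFC) of male C57BL/6N mice of 9 weeks. RNA-seq was carried out on 3 Control mice, which were housed in groups, and 3 ELS mice, which were housed alone as early life stress (social isolation), with 1 library per mouse. All 6 mice were of this 1 strain and sex, and the methods of the study place controls and ELS mice in litters of the same mothers. The genes were taken by symbol from a table of 22000 symbols. Members were then kept by a rule on their measured level, 1 CPM or more in each mouse of either group. Of the 42 symbols, 42 were in the table and 42 passed, so the rule removed none. The lowest was Cbln4 at a mean of 13.8 CPM and the highest Clstn1 at 1575 CPM. No symbol of the list lay just outside the rule, and the level that chose the members is not itself a result. CPM stands for counts scaled to a library of fixed size, here after TMM scaling, which corrects for differences in composition between libraries.

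Synaptic adhesion molecules bridge the cleft between axon terminal and dendrite. On the presynaptic side, neurexins and the LAR-type receptor phosphatases bind partners on the postsynaptic membrane, which include neuroligins, Lrrtm, Slitrk and Lrfn proteins. The Lrfn proteins, also named SALMs, carry leucine-rich repeats, and several of them bind LAR-type phosphatases. In the cortex such pairs are known to help recruit glutamate or GABA receptors and to set where synapses form.

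Within the Lrfn family the proteins differ at their C-terminal end. Lrfn1, Lrfn2 and Lrfn4 are known to end in a tail that binds the PDZ domains of the scaffold protein PSD-95, which Lrfn3 and Lrfn5 lack. The last 24 coding bases before the stop codon are shown for the longest coding transcript of each gene in GENCODE M21 on GRCm38, because this end separates the family into the 2 kinds in these transcripts. Capitals mark the last 4 codons, and each sequence is written 5′ to 3′ on the strand of its gene.
Lrfn1 (chr7:28467457-28467480, plus strand): gaatggatgctgGAGAGTACCGTG
Lrfn2 (chr17:49097191-49097214, plus strand): gagtgggtaatgGAAAGTACTGTG
Lrfn4 (chr19:4612080-4612103, minus strand): gagcggctggagGAGAGTGTGGTG
Lrfn3 (chr7:30355641-30355664, minus strand): cccagtcacgaaCCTGCAGGACCC
Lrfn5 (chr12:61844141-61844164, plus strand): atgtctatgaatGCAATGTGGACT
In the 12 capital bases Lrfn1 and Lrfn2 shared 10 bases, Lrfn1 and Lrfn4 shared 9, and Lrfn2 and Lrfn4 shared 8. Lrfn3 or Lrfn5 shared between 0 and 3 bases with any other member. For Lrfn1 and Lrfn5 the annotation marks a shorter transcript as principal (1476 and 2157 bp of coding sequence), which ends differently and for Lrfn1 lacks the shared ending, and the counts per gene do not separate transcripts. The coding parts shown were 2298, 2364, 1878, 1908 and 2238 bp long for Lrfn1 to Lrfn5.

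Total counts ran from 28405795 to 35241743 per mouse, and the 3 ELS libraries were the deepest. Summed markers of cortical excitatory neurons (6 of 6 measured) lay between 6879 and 8001 CPM, whereas those of choroid plexus (4 of 4) lay between 2.14 and 3.48 CPM. Markers of striatal projection neurons, which a dissection of the PFC can take along, summed to 197 CPM in control mouse 1, 218 CPM in control mouse 2 and 391 CPM in control mouse 3, and to 396, 252 and 269.9 CPM in ELS mice in the same order. This sum covers 7 of 8 listed markers, since Drd1 was not analysed here, and none of the 7 was at 0, with the lowest value 3.38 CPM for Drd2. Control mouse 3 and ELS mouse 1 therefore stood apart from the other mice, 1 in each group. The sums of all 10 marker lists overlapped between the groups.

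The first comparison asked which of these genes differed between ELS and Control mice. Lrfn2 measured lower in every ELS mouse than in every control mouse, and in the fit to all 6 mice no other gene of the 42 differed by more than 0.3 on the log2 scale. A gene was called at an adjusted p under 0.05 (Benjamini-Hochberg, over all genes tested) together with an absolute log2 fold change above 0.3. By the quasi-likelihood test of edgeR 0 of 42 members were called, against 2 of 13185 genes tested (0.0152%). DESeq2 called 1 member, Lrfn2, against 18 genes of all tested (0.137%). An unadjusted p under 0.05 was found for 4 members (9.52%), namely Lrfn2, Lrrtm2 and Cbln4, which were lower in ELS mice, and Slitrk4, which was higher, against 558 of all genes (4.23%). This count was unstable, with 1 member without ELS mouse 2 or without ELS mouse 3, 1 with the replicate number as block and 13 with the striatal markers described above as a covariate. The groups did not overlap for 5 members (11.9%), against 1092 of all genes (8.28%). Of these, 3 lay below the controls in ELS mice (Lrfn2, Lrrtm2 and Cbln4), as did 590 of all genes (4.47%). The other 2 lay above (Slitrk4 and Cbln2), as did 502 of all genes (3.81%). Since Lrfn2 was known to differ when the genes were chosen, its part in these counts is not independent evidence. Without it, 3 of 41 members (7.32%) had an unadjusted p under 0.05 in edgeR, and for 4 (9.76%) the groups did not overlap. Among the 9242 genes in the CPM range of the members, these shares were 3.35% and 6.97%.

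Most members measured close to equal in both groups. The median log2 fold change of the 42 was 0.017, beside −0.005 over all genes tested, with 26 above 0 and 16 below. For 37 members the fold change with 2 standard errors (SE) on either side stayed within 0.3 on the log2 scale, as it did for 8615 of the 13185 genes tested and for 7989 of the 9242 genes in the CPM range of the members. The members were thus near other genes of their level in this count. The exceptions were Lrfn2, Cbln4, Slitrk1, Il1rapl1 and Ntrk3. The SE ran from 0.063 for Lrrtm2 to 0.12 for Ntrk3. Adjusted p was 0.288 for Lrfn2 and above 0.9 for the other 41 members. In bulk tissue, fewer cells of a type and less RNA per cell cannot be told apart.

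**Figure D1:**
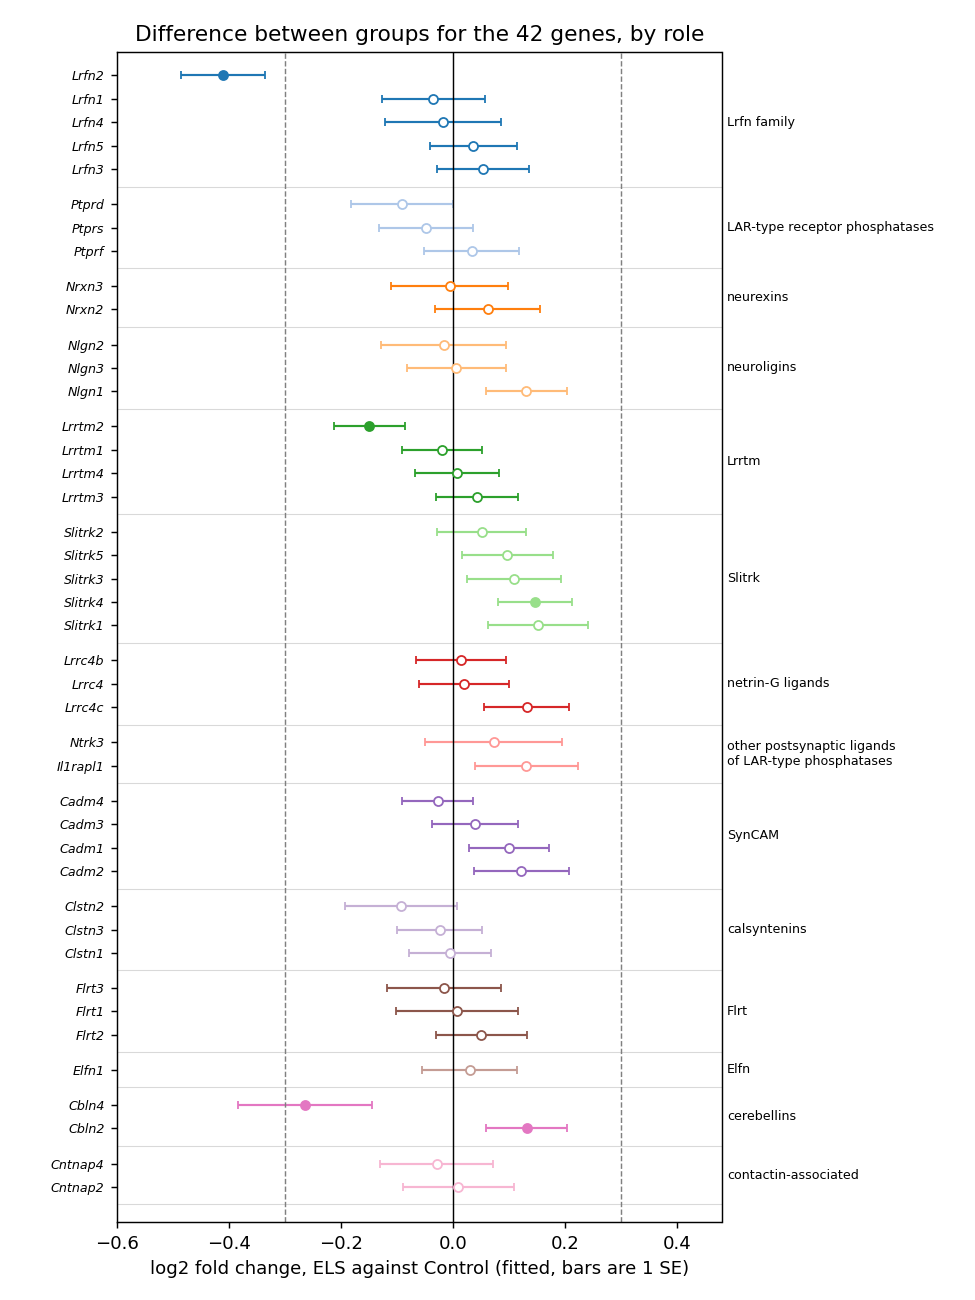
Fitted log2 fold change of ELS against Control for each of the 42 genes, grouped by role, with bars of 1 SE and dashed lines at −0.3 and 0.3. Filled points mark the 5 genes whose groups did not overlap, and Lrfn2 at −0.41 is the point outside the dashed lines.

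In the Lrfn family, Lrfn2 was at 26.5, 27.3 and 27.0 CPM in the control mice and at 20.4, 20.7 and 19.8 CPM in the ELS mice, given here and in what follows in the order of their numbers. The groups did not overlap. The counts behind these values were 817, 772 and 772 reads in control mice and 679, 722 and 639 reads in ELS mice. The coefficient of variation was 1.48% among control and 2.09% among ELS mice, below the 3.50% to 3.96% that counting error alone gives at these counts. The control mean was 26.9 ± 0.399 CPM and the ELS mean 20.3 ± 0.424 CPM (SD, n = 3 each), a fitted difference of −24.7%. The log2 fold change was −0.41 (SE 0.075) with an adjusted p of 0.288 in edgeR and 0.0134 in DESeq2. Of all genes tested, 97.8% had a smaller absolute log2 fold change. The gene covers chr17:48932379-49097588 on the plus strand in GRCm38, and 4.53% of its exon bases overlap an annotated miRNA gene on the opposite strand. The strand setting of the counting is not given in the sources used here, so reads of overlapping genes cannot be told apart. The call depended on single mice as well as on the tool. Without control mouse 3 edgeR gave an adjusted p of 0.0497, and without any 1 of the other 5 mice it gave 0.491 to 0.999. The unadjusted p of Lrfn2 in edgeR hardly changed without control mouse 3, at 1.07e-04 against 1.23e-04 with no mouse left out. Without any 1 of the other 5 mice it was 4.28e-04 to 0.00116. The adjustment runs over all genes, of which 29 were called without control mouse 3 and 2 with no mouse left out. The log2 fold change of Lrfn2 itself stayed between −0.43 and −0.39 over the 14 alternatives. Without control mouse 3 and ELS mouse 1, the mice with high striatal markers, its log2 fold change was −0.41. Its adjusted p in edgeR was then 0.0910.

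The other 4 genes of the family overlapped between the groups. Lrfn1, also known as SALM2, measured 58.9, 61.3 and 51.6 CPM in control mice and 49.2, 61.6 and 57.0 CPM in ELS mice. In both groups the mouse with high striatal markers was the lowest. Lrfn3 measured 26.8, 26.1 and 24.5 CPM in control mice and 25.3, 28.9 and 26.1 CPM in ELS mice. For Lrfn4 the values were 30.4, 33.0 and 24.3 CPM in controls and 29.6, 29.5 and 27.5 CPM in ELS mice, so that the lowest value of the 6 was that of control mouse 3. Lrfn5, whose product is known to bind the LAR-type phosphatases across the cleft, gave 91.6, 80.8 and 85.0 CPM in controls and 80.3, 94.0 and 89.7 CPM in ELS mice. Log2 fold changes were −0.03, 0.05, −0.02 and 0.04 for Lrfn1, Lrfn3, Lrfn4 and Lrfn5, with SE from 0.078 to 0.104. Whether Lrfn2 differed from Lrfn1 and Lrfn4, which have similar coding ends in the sequences above, in its fold change was not tested.

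**Figure D2:**
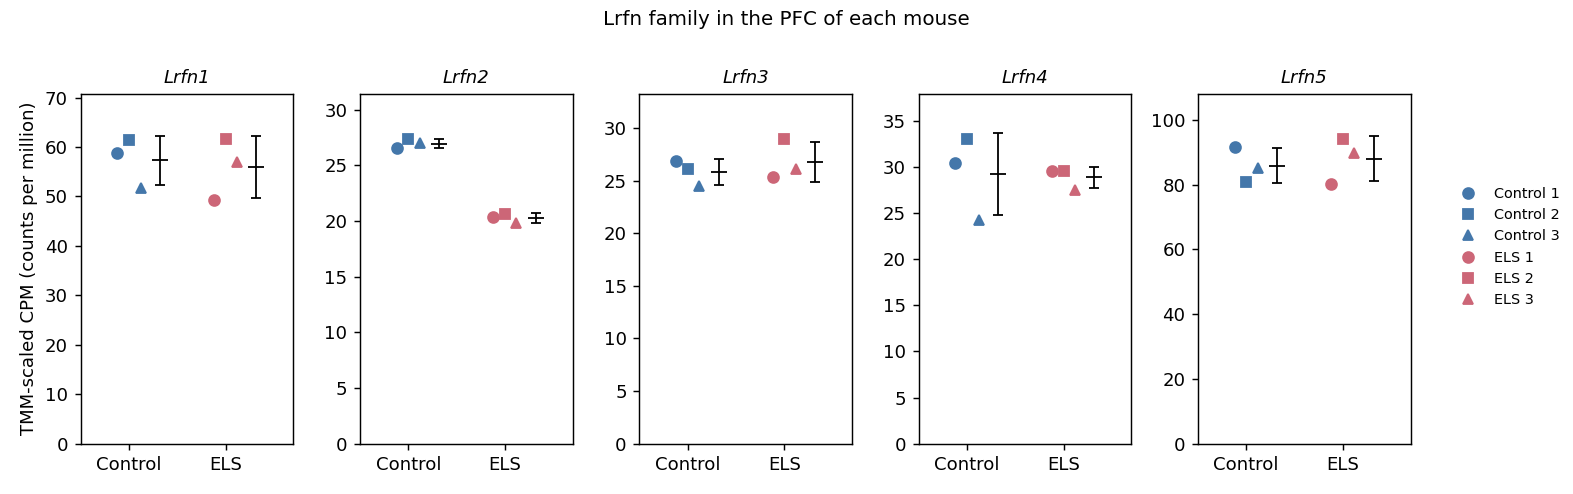
TMM-scaled CPM of the 5 Lrfn genes in each of the 6 mice, with the mean and SD of each group beside the points and axes from 0. Lrfn2 lies at 26.5 to 27.3 CPM in Control and 19.8 to 20.7 CPM in ELS mice, and the groups overlap for the other 4 genes.

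Per kilobase of exon, the unit in which levels of different genes can be compared, Lrfn1 was the highest of the family at 14.4 CPM per kb. Lrfn3 and Lrfn5 followed at 9.12 and 9.11 CPM per kb, then Lrfn4 at 8.63 and Lrfn2 at 7.37 CPM per kb. The ranges over 6 mice of neighbours in this order overlapped from Lrfn3 down. The family summed to 49.7 ± 3.00 CPM per kb in control and 47.7 ± 2.98 CPM per kb in ELS mice (SD, n = 3 each). Lrfn2 made up 16.2%, 16.6% and 18.2% of this sum in control mice and 14.2%, 12.7% and 13.1% in ELS mice. As a share of the family Lrfn2 thus separated the groups as it did on the CPM scale, and the family sum overlapped between them. The share of Lrfn3 separated them too, at 18.1%, 17.6% and 18.4% in control mice and 19.6%, 19.7% and 19.1% in ELS mice, while those of Lrfn1, Lrfn4 and Lrfn5 overlapped. The sum contains Lrfn2, however, and with Lrfn2 taken out of it the share of Lrfn3 overlapped between the groups, at 21.6%, 21.1% and 22.5% in control and 22.8%, 22.6% and 22.0% in ELS mice.

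On the presynaptic side, no LAR-type receptor phosphatase or neurexin passed the test. Ptprs, the most abundant of the phosphatases in CPM, measured 443, 452 and 378 CPM in control mice and 377, 442 and 412 CPM in ELS mice. Ptprd measured 279, 315 and 243 CPM in controls and 241, 269 and 276 CPM in ELS mice. In both genes control mouse 3 and ELS mouse 1 were the lowest of their groups. The log2 fold changes were −0.05 (SE 0.084) and −0.09 (SE 0.092). Nrxn2, a neurexin, measured 443, 421 and 360.4 CPM in controls and 374, 466 and 438 CPM in ELS mice, with a log2 fold change of 0.06 (SE 0.094), and 6.44% of its exon bases overlap genes on the opposite strand. Ptprf and Nrxn3 also overlapped between groups, at log2 fold changes of 0.03 and −0.01.

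Neuroligins are postsynaptic partners of neurexins, with Nlgn2 known from inhibitory and Nlgn1 from excitatory synapses. Nlgn2 measured 244, 243 and 188 CPM in control mice and 193, 252 and 222 CPM in ELS mice, a log2 fold change of −0.02 (SE 0.112). Nlgn1 measured 96.6, 95.4 and 85.7 CPM in controls and 95.9, 102 and 106 CPM in ELS mice, a log2 fold change of 0.13 (SE 0.072). Neither passed the test, and in Nlgn1 only ELS mouse 1 lay within the range of the controls. Without control mouse 3 the log2 fold change of Nlgn1 was 0.08, and without ELS mouse 1 it was 0.17. Nlgn1 shares 9.16% of its exon bases with an antisense gene. Nlgn3 shares 41.2% of its exon bases with a transcript on the same strand, so its log2 fold change of 0.01 is uncertain.

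The Lrrtm proteins are leucine-rich repeat partners of neurexins at excitatory synapses. Lrrtm2 measured 139, 133 and 136 CPM in control mice and 125, 125 and 118 CPM in ELS mice. The groups did not overlap, and the means were 136 ± 2.82 CPM for Control and 123 ± 3.83 CPM for ELS (SD, n = 3 each). The log2 fold change was −0.15 (SE 0.063), with an unadjusted p of 0.0347 and an adjusted p above 0.9 in edgeR, so it did not pass. Without control mouse 3 and ELS mouse 1 its log2 fold change was −0.16. A stretch of 1.58% of its exon bases overlaps Ctnna1 on the opposite strand. Lrrtm1, Lrrtm3 and Lrrtm4 overlapped between groups at log2 fold changes from −0.02 to 0.04, and 25.1% of the exon bases of Lrrtm4 overlap an antisense gene.

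The Slitrk proteins bind LAR-type phosphatases from the postsynaptic side, and all 5 members measured had a log2 fold change above 0, from 0.05 for Slitrk2 to 0.15 for Slitrk1. None was called. Slitrk4 was at 77.7, 79.3 and 77.3 CPM in control mice and at 82.3, 91.9 and 85.2 CPM in ELS mice, so the groups did not overlap. Its log2 fold change was 0.15 (SE 0.067), with an unadjusted p of 0.0474 in edgeR. Slitrk1, the most abundant of them in CPM, was at 111, 109 and 91.2 CPM in controls and at 105, 127 and 113 CPM in ELS mice. Here the group ranges overlapped and the fold change of 0.15 had a wider error (SE 0.090). Without control mouse 3 it was 0.07 and without ELS mouse 2 it was 0.08. Control mouse 3 was the lowest mouse for each of the 5 genes.

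Of the genes grouped here as netrin-G ligands, Lrrc4c gave 168, 173 and 152 CPM in control mice and 167, 193 and 179.8 CPM in ELS mice. Its log2 fold change of 0.13 (SE 0.076) did not pass the test, and Lrrc4 and Lrrc4b lay at 0.02 and 0.01. The fold change of Lrrc4c was 0.08 without ELS mouse 2 or without control mouse 3, and 0.18 without ELS mouse 1. Ntrk3 and Il1rapl1, which bind the phosphatase Ptprs and Ptprd respectively, had wide errors. Ntrk3, the receptor of neurotrophin-3, ranged from 113 to 150.3 CPM in controls and from 119 to 162 CPM in ELS mice (log2 fold change 0.07, SE 0.123). Il1rapl1 ranged from 24.6 to 26.8 CPM in controls and from 25.8 to 32.1 CPM in ELS mice (log2 fold change 0.13, SE 0.092), and its fold change was 0.03 without ELS mouse 2. The 2 SE interval of each reached past 0.3, so a difference of that size could not be told from none at this number of mice.

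Flrt2, a ligand of latrophilins and Unc5 receptors, measured 95.7, 102 and 93.3 CPM in control mice and 89.2, 109.98 and 102 CPM in ELS mice, a log2 fold change of 0.05 (SE 0.081). Flrt1 and Flrt3 lay at 0.01 and −0.02. Elfn1, which acts at synapses onto inhibitory neurons, measured 31.2, 29.1 and 26.9 CPM in controls and 27.3, 30.5 and 31.3 CPM in ELS mice, with a log2 fold change of 0.03 (SE 0.085). The group ranges overlapped for these 4 genes.

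Cerebellins are secreted and link neurexins to receptors of the delta type. The 2 members pointed in opposite directions, and in both the groups did not overlap. Cbln4 measured 13.7, 17.7 and 13.7 CPM in control mice and 13.6, 11.4 and 12.5 CPM in ELS mice. The lowest control and the highest ELS mouse were nearly equal, and control mouse 2 stood above all others. Its log2 fold change was −0.26 (SE 0.12) with an unadjusted p of 0.0473 in edgeR, and it moved with single mice. Without control mouse 2 it was −0.13 with an unadjusted p of 0.273. Without control mouse 1, control mouse 3 or ELS mouse 1 it was −0.33 each time, and without both mice of high striatal markers it was −0.39. Cbln2 measured 58.3, 60.2 and 52.3 CPM in controls and 64.2, 61.8 and 61.1 CPM in ELS mice, a log2 fold change of 0.13 (SE 0.072) with an unadjusted p of 0.0912. Without control mouse 3, the lowest of the 6, it was 0.07.

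**Figure D3:**
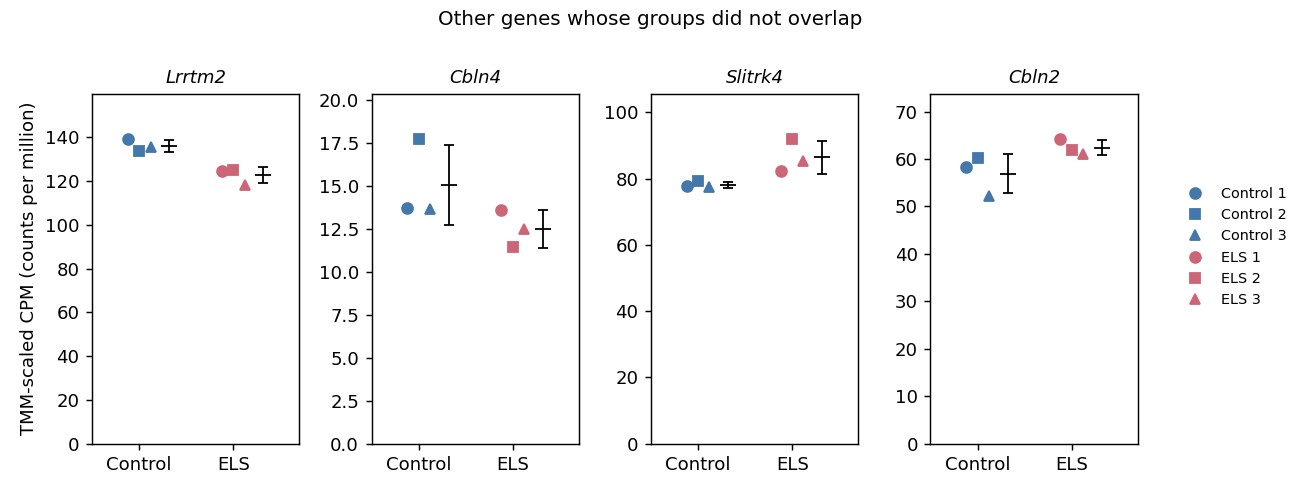
TMM-scaled CPM of Lrrtm2, Cbln4, Slitrk4 and Cbln2 in each mouse, with the mean and SD of each group and axes from 0. Lrrtm2 and Cbln4 lie lower and Slitrk4 and Cbln2 higher in ELS mice, and for Cbln4 the nearest mice of the groups are at 13.7 and 13.6 CPM.

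Cadm1 to Cadm4, the SynCAM proteins, are immunoglobulin proteins that bind each other across the cleft. Cadm3 measured 439, 414 and 390.3 CPM in control mice and 385, 455 and 438 CPM in ELS mice (log2 fold change 0.04, SE 0.077), and 4.98% of its exon bases overlap Ackr1 on the same strand. Cadm2 measured 396, 371 and 351 CPM in controls and 355, 446 and 416 CPM in ELS mice (log2 fold change 0.12, SE 0.086), and the fold change was 0.05 without ELS mouse 2 and 0.21 without ELS mouse 1. In both genes control mouse 3 and ELS mouse 1 had the lowest value of their groups. Cadm1 and Cadm4 lay at 0.10 and −0.03.

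The calsyntenins, which bind neurexins or act in vesicle transport, had log2 fold changes of −0.005, −0.02 and −0.09 for Clstn1, Clstn3 and Clstn2. Clstn1 measured 1696, 1589.8 and 1448 CPM in control mice and 1468, 1628 and 1623 CPM in ELS mice (SE 0.073). Clstn2 measured 76.1, 74.3 and 58.1 CPM in controls and 60.7, 70.9 and 63.9 CPM in ELS mice (SE 0.0999). The 2 groups overlapped throughout. Cntnap2 and Cntnap4, relatives of neurexins that bind contactins, had log2 fold changes of 0.01 and −0.03. Cntnap2 measured 116, 116 and 93.2 CPM in controls and 95.97, 118 and 114 CPM in ELS mice (SE 0.099). Cntnap4 measured 26.9, 24.6 and 22.2 CPM in controls and 24.9, 26.2 and 21.2 CPM in ELS mice (SE 0.101), and 8.01% of its exon bases overlap an antisense gene.

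The levels of the 42 genes per kb of exon ran from 2.91 CPM per kb for Il1rapl1 to 338 CPM per kb for Clstn1. After Clstn1 came Cadm4 at 116, Clstn3 at 70.7, Cadm3 at 58.0 and Lrrc4b at 56.9 CPM per kb. Between these last 2 the ranges over the 6 mice overlapped, while each of the first 3 was above the next gene in every mouse. Further down, most neighbours could not be ordered. Of 41 neighbouring pairs 35 overlapped in their ranges, and the 6 that did not were Clstn1 above Cadm4, Cadm4 above Clstn3, Clstn3 above Cadm3, Lrrc4b above Cadm2, Ptprs above Lrrtm2 and Lrrtm4 above Slitrk2. Exon lengths are those of all annotated exons of a gene, so a gene with long minor transcripts can measure low on this scale.

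**Figure D4:**
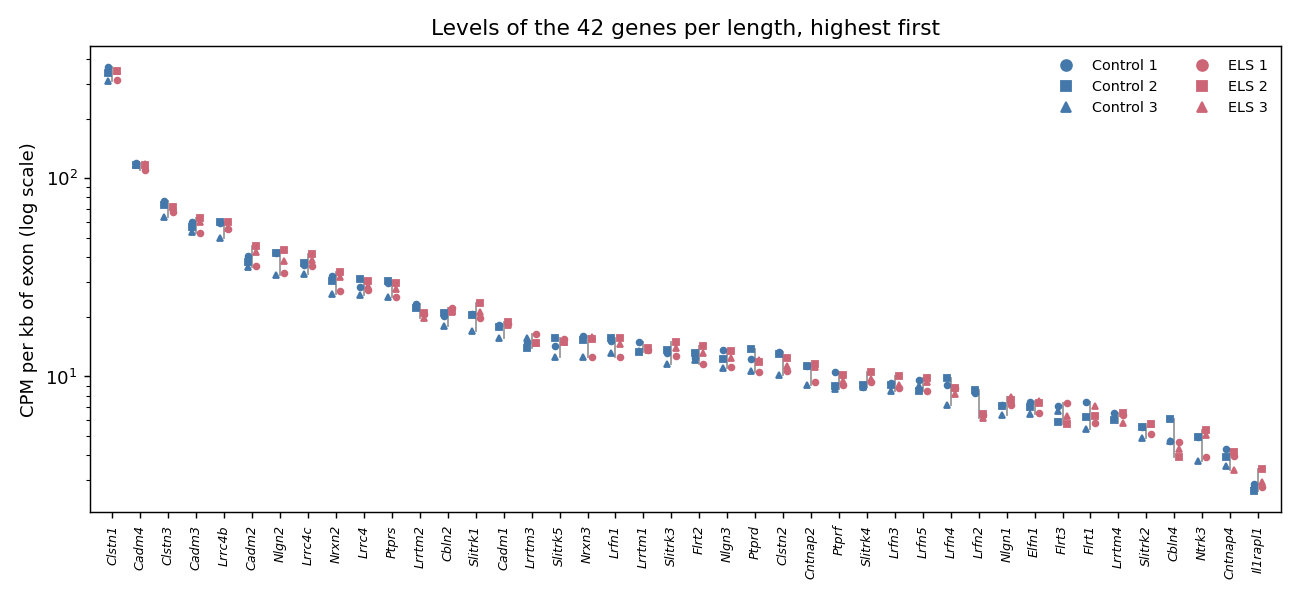
Level of each of the 42 genes in CPM per kb of exon on a log axis, ordered by the mean over 6 mice, with a point for each mouse and a line over their range. Clstn1 at 338 and Cadm4 at 116 CPM per kb stand at the top, and most neighbouring ranges overlap.

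Across mice, most members were lowest in control mouse 3. Measured as log2 CPM from each gene's mean over the 6 mice, the median of the 42 was 0.07, 0.02 and −0.14 in the control mice and −0.07, 0.09 and 0.03 in the ELS mice. Control mouse 3 was the lowest of the 6 mice for 26 members (61.9%), beside 21.4% of all genes tested. ELS mouse 1 was the lowest for 7 members (16.7%), close to its 16.3% of all genes. Among the controls, mouse 3 was the lowest for 33 members and for 39.4% of all genes tested. Among the ELS mice, mouse 1 was the lowest for 30 members and for 36.3% of all genes tested. These were the 2 mice with the highest sums of striatal markers, 391 and 396 CPM against 197 to 269.9 CPM in the others. The oligodendrocyte marker sum (5 of 5 measured) was also highest in these 2 mice, at 7556 CPM in control mouse 3 and 6626 CPM in ELS mouse 1, against 5666 to 6297 CPM in the others. Markers of cortical excitatory neurons were lowest in the same 2 mice, at 7300.3 and 6879 CPM against 7715 to 8001 CPM in the others. Blood markers (4 of 4 measured) were highest there, at 75.3 and 73.2 CPM against 45.2 to 57.3 CPM. The part of any of these in the members' levels was not tested. With both mice left out, 0 members and 27 of all genes were called, and the median log2 fold change was 0.003. With the striatal markers as a covariate, 1 member was called, Lrfn2, of 35 genes called in all, and the median was 0.08. Both fits called more genes overall than the 2 of the fit to all 6 mice without a covariate. The adjusted p of Lrfn2 in edgeR was 0.0154 with the covariate and 0.0910 with both mice left out.

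**Figure D5:**
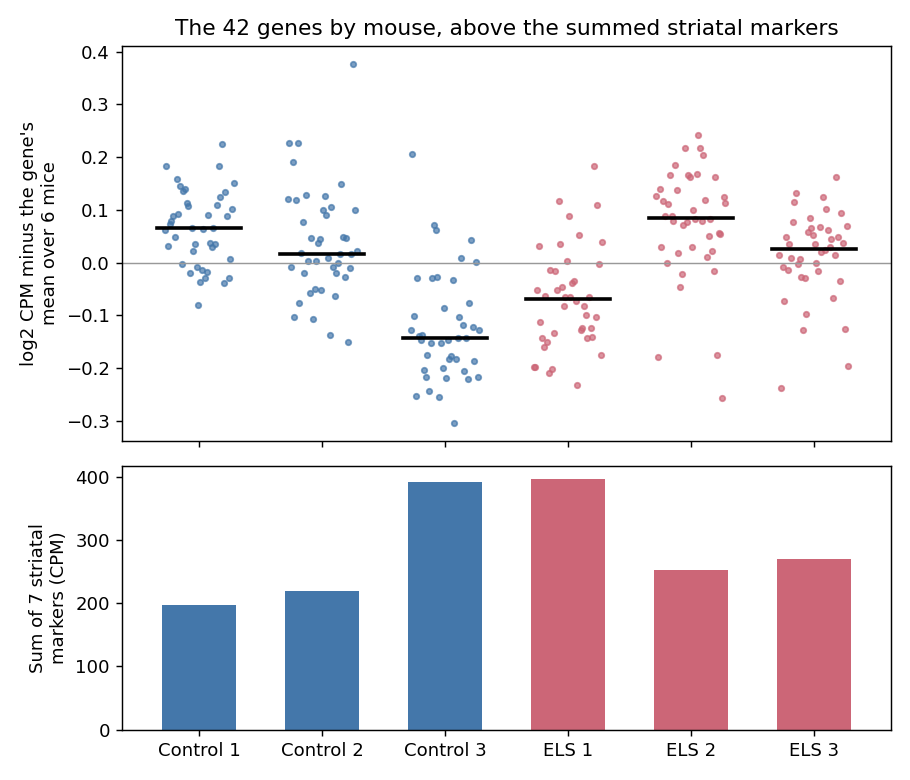
Upper panel, log2 CPM of each of the 42 genes minus its mean over 6 mice, with the median as a bar, and lower panel, the sum of 7 striatal markers in CPM. Control mouse 3 and ELS mouse 1 have the lowest medians (−0.14 and −0.07) and the highest sums (391 and 396 CPM).

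A further list of 70 synaptic adhesion genes and partners, such as latrophilins, teneurins, contactins and ephrin receptors, held 67 genes that passed the filter on levels. None of the 67 was called by edgeR or by DESeq2, and 2 had an unadjusted p under 0.05 in edgeR (2.99%), beside 4.23% of all genes. The groups did not overlap for the same 2 genes, against 8.28% of all genes. Their median log2 fold change was −0.03. Nectin3, a nectin of adherens contacts between neurons that the table lists as Pvrl3, measured 42.5, 42.7 and 39.7 CPM in control mice and 43.8, 52.8 and 57.4 CPM in ELS mice. All ELS mice were above all controls, with a log2 fold change of 0.30 (SE 0.093) and an adjusted p of 0.910 in edgeR. With the striatal markers as a covariate its adjusted p was 0.0291, and with both mice of high striatal markers left out it was 0.0522. Without ELS mouse 3 its log2 fold change was 0.21. Ephb2, an ephrin-B receptor of excitatory synapses, measured 21.9, 19.7 and 18.9 CPM in controls and 14.4, 17.5 and 16.6 CPM in ELS mice. All ELS mice were below all controls, with a log2 fold change of −0.32 (SE 0.099) and an adjusted p of 0.910 in edgeR.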

How the data were processed

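RNA-seq of PFC was compared between 3 Control and 3 ELS mice. The authors used Trimmomatic for trimming, STAR for alignment to mm10 and HTSeq for counting, and deposited raw counts of uniquely mapped reads per gene symbol, not normalized. The submitters' processing notes give STAR 2.7.1a and HTSeq 0.9.1, while the methods name another STAR version. The annotation release is not given in the sources used here. The columns of ELS mice carry a short form of social isolation with a number, which gave their mouse. The labels name a TruSeq stranded kit and the methods of the study KAPA kits.

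Counts were analysed in R 4.3.3. The 13185 genes that reached 1 CPM in each mouse of either group were scaled by TMM and tested with the quasi-likelihood test of edgeR 4.0.16 with condition as its only term. P-values were adjusted by Benjamini-Hochberg over all genes tested, and SE were derived from the F statistic. The precision is limited by the 3 mice per group. The p-values rest on the spread among mice of a group, which edgeR estimates for each gene with help from all genes. Mice of a group differed by more than sampling noise (chi-square per degree of freedom 6.70 or more). DESeq2 1.42.0, limma-voom (limma 3.58.1), other scalings and filters, a fit with the replicate number as block and fits without single mice were alternatives, and 2 striatal alternatives were added after seeing the data. Only the edgeR fit with condition as its term was run on simulated counts, and its recovery of known changes is not reported here.

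Gene positions, exon lengths and coding ends came from GENCODE M21 (GRCm38, which is mm10). Named with a fold change and SE were the Lrfn genes, the most abundant and the most different gene of each other role, and genes with an unadjusted p under 0.05, while other members are given by fold change alone. The members and lists were chosen with earlier results of these data known.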

Additional observations from a re-analysis of the deposited data

How the results depend on the processing

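Of 42 members, 0 were called in the analysis as reported, and 1, Lrfn2 in each case, with DESeq2, with the striatal covariate and without control mouse 3. Leaving out single mice gave 0 to 1 calls. The striatal covariate also called 1 of the other synaptic adhesion genes, Nectin3. With the replicate block 0 members were called, and 7 of all genes against 2 without it. The deviations of mice of the same number had correlations of −0.16, 0.26 and −0.04 for numbers 1, 2 and 3. The labels name no litter or batch, so whether the numbers pair mice is not known. Over all genes, DESeq2 called 18, the analysis with no filter called 4, the striatal covariate 35, both striatal-high mice left out 27, and the analysis without control mouse 3 called 29. Each of the other single mice left out gave 1 call. The median log2 fold change of the members ran from −0.03 to 0.07 when single mice were left out. Limma-voom, DESeq2 size factors, the stricter filter and the looser threshold changed no call among the members.

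Of 26 named members 11 kept their sign in all 14 alternatives, and 15 did not. A kept sign does not mean a stable size. When single mice were left out, the log2 fold change ran from −0.426 to −0.394 for Lrfn2, −0.166 to −0.124 for Lrrtm2, 0.0980 to 0.179 for Slitrk4, 0.0730 to 0.174 for Cbln2, −0.331 to −0.130 for Cbln4, 0.0331 to 0.195 for Il1rapl1, 0.0671 to 0.209 for Slitrk1, 0.0457 to 0.208 for Cadm2, 0.0774 to 0.168 for Nlgn1, 0.0774 to 0.180 for Lrrc4c and −0.207 to −0.0212 for Clstn2. Log2 fold changes of the other 15 when single mice were left out ran from −0.113 to 0.0476 for Lrfn1, −0.00803 to 0.0908 for Lrfn3, −0.136 to 0.0778 for Lrfn4, −0.0165 to 0.0964 for Lrfn5, −0.125 to 0.00844 for Ptprs, −0.182 to 0.00613 for Ptprd, −0.0208 to 0.145 for Nrxn2 and −0.132 to 0.0738 for Nlgn2. They ran from −0.0503 to 0.193 for Ntrk3, −0.0136 to 0.106 for Cadm3, −0.0642 to 0.0507 for Clstn1, −0.0237 to 0.127 for Flrt2, −0.0234 to 0.0852 for Elfn1, −0.0899 to 0.0930 for Cntnap2 and −0.0982 to 0.0553 for Cntnap4. With the striatal covariate the sign also turned for Lrfn1 (0.0267), Lrfn4 (0.0409), Ptprs (0.0106), Nlgn2 (0.0773), Clstn1 (0.0404) and Cntnap4 (0.00509), and without both striatal-high mice for Cntnap2 (−0.000627). The cause was not tested. Every value with a turned sign was within 2 SE of 0.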
